A study of Mus musculus with 31 samples.

Results

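The 10 genes described here belong to 2 double-strand break repair routes and were followed in irradiated mouse tumors, where every library lists all 10. The genes were grouped by their known roles and were found by gene symbol among the 46072 genes that each library lists. Of these, 7 belong to classical non-homologous end joining (Xrcc6, Xrcc5, Prkdc, Dclre1c, Xrcc4, Lig4 and Nhej1) and 3 to alternative end joining (Parp1, Polq and Lig3). Tumors came from RM-9 cells, a mouse prostate cancer line, or MC-38 cells, a mouse colon cancer line, grown under the skin of the right hind leg of male C57BL/6J mice bought at 6 to 7 weeks of age. Tumors received a single local dose of 15 Gy (RT) and were taken 3 h, 12 h or 24 h later, with untreated tumors as controls. Each library was 1 tumor of 1 mouse, with 4 mice per group except RM-9 RT 24 h, which had 3, giving 15 RM-9 and 16 MC-38 libraries. The controls of a model were all labelled 3 h, so no control of the same age stands beside the 12 h and 24 h groups, and the 3 RT times of a model share their 4 controls. The question put to these genes was whether their transcripts differed between RT and control tumors at each time, and whether the change differed between the models.

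End joining ligates the ends of a DNA double-strand break without copying a sister chromatid. In the classical route the Ku ring, made of Xrcc6 (Ku70) and Xrcc5 (Ku80), covers the ends and recruits the kinase DNA-PKcs (Prkdc), the nuclease Artemis (Dclre1c) opens hairpins and trims overhangs, and the ligase Lig4 seals the break together with its partner Xrcc4 and the bridging factor XLF (Nhej1). The alternative route works on resected ends: Parp1 marks strand breaks with poly(ADP-ribose), polymerase theta (Polq) joins ends through short matching stretches, and Lig3 can seal them. Ionizing radiation makes such breaks directly, and most of these proteins are known to be controlled after translation, by recruitment and phosphorylation.

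The sequence around the start is shown for Parp1 and Polq, the 2 genes that rose at RT 12 h in MC-38 on both scales used below, and for Nhej1, which fell at RT 24 h. RefSeq windows of 300 bases on GRCm38.p6 (250 before to 50 after the annotated start) were given for 9 of the 10 genes, with 2 windows for Lig4 and none for Prkdc. Capitals mark GC boxes (GGGCGG) in Parp1, read on chr1:180568641-180568940 on the plus strand, and in Nhej1, read on chr1:75125177-75125476 on the minus strand. In Polq, on chr16:37011536-37011835 on the plus strand, they mark the cell cycle element CHR (TTTGAA) and the Ets core (CCGGAAG).
Parp1: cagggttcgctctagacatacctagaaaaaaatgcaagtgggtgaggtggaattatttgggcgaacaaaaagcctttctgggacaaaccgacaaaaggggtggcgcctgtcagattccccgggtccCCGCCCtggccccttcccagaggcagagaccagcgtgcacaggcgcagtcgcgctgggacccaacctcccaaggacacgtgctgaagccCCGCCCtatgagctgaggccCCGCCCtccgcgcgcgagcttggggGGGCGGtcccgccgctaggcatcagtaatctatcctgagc
Polq: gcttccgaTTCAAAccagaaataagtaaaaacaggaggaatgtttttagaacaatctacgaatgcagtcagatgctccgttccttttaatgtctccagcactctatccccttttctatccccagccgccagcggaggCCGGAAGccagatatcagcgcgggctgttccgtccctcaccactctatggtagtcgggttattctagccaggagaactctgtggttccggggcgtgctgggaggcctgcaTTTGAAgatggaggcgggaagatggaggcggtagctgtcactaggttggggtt
Nhej1: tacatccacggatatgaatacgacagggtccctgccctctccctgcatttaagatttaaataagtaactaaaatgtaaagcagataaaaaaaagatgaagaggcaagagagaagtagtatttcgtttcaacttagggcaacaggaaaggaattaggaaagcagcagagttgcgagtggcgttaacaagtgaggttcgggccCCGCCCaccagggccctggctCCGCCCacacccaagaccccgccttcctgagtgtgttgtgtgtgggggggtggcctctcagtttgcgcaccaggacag
Both strands were searched, and the matches in these 3 windows did not overlap. The Parp1 window holds 4 GC boxes and the Nhej1 window 2. A GC box was present in the windows of 7 of 9 genes, and in 35.7% of all 32851 windows. The Polq window holds 2 CHR elements and 1 Ets core. None of the other 8 genes with a window held a CHR element (17.9% of all windows), whereas the Ets core was present in 4 of 9 genes (8.86% of all windows). The CCAAT box was present in 3 genes (37.4% of all windows), the E2F site TTTCCCGC in Xrcc6 (1.07%) and the NRF1 core in Lig4 (0.971%). The E2F sites TTTCGCGC and TTTGGCGC were present in none (0.323% and 0.514% of all windows). These matches describe letters and not binding. The median GC content of the windows was 59.2%, and 52.7% over all windows.

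The deposited coordinates are those of GRCm38. Parp1 spans chr1:180568924-180601254, Polq chr16:37011786-37095417 and Lig3 chr11:82781108-82804274. The Ku subunits lie at chr15:81987835-82040085 (Xrcc6) and chr1:72307421-72394952 (Xrcc5), and Prkdc at chr16:15637866-15842235. Dclre1c spans chr2:3424131-3464130, Xrcc4 chr13:89774027-90089608, Lig4 chr8:9970020-9977686 and Nhej1 chr1:74967139-75125200. Of the 10 genes, 3 have another protein-coding gene that starts within 1000 bases on the opposite strand (Prkdc with Mcm4, Lig4 with Abhd13 and Xrcc4 with Tmem167), as do 10.9% of 21951 coding genes. Exons of 4 genes share bases with a gene on the opposite strand: 1826 bases of Lig3 with Rffl, 357 of Dclre1c with Suv39h2, 344 of Xrcc6 with Desi1 and 112 of Xrcc4 with Tmem167. The sources used here do not say whether strand was used in counting, so the shared bases are uncertain for these 4 genes.

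Libraries held 21.4 to 29.4 M reads, as computed from the deposited coverage and FPKM. Mitochondrially encoded genes took 47.3 to 57.2% of TPM (a transcript level per length, scaled to 1 fixed total per library) in RM-9 tumors and 22.5 to 40.6% in MC-38 tumors. MC-38 control mouse 1 stood apart with the 40.6%, against 25.7 to 31% in the other 3 controls, and with a summed TPM of 9783 for 5 skeletal muscle genes, against 16.9 to 1592 in those 3. Since TPM adds to a fixed total, the main results are given as deposited and after median-ratio scaling, which divides each library by the median ratio of its genes to their means. Where no scale is named, values are as deposited. The main results that rest on the MC-38 controls are also given without mouse 1. The prostate marker Pbsn was listed at 0 in every RM-9 control, which had 910 ± 74.7 TPM of the epithelial keratin Krt8 (SD, n = 4). In MC-38 controls Krt8 was 0.126 ± 0.0873 TPM (SD, n = 4) and the intestinal factor Cdx2 was listed at 0, so neither of these tissue markers was seen in its model. Of 6 transcripts induced by p53, 3 rose at RT 3 h in RM-9 (0.2% of all genes tested rose) and 2 in MC-38 (0.051%). Mdm2, the ubiquitin ligase of p53, rose from 644 ± 193 to 1517 ± 227 TPM in RM-9 and from 15.6 ± 3.22 to 34.0 ± 5.14 TPM in MC-38 (SD, n = 4 each). A lower level in a tumor can mean fewer cells with the transcript or less of it per cell, which cannot be told apart.

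In control tumors the 10 genes covered a 38.6-fold range of mean TPM in RM-9 and a 57.0-fold range in MC-38. Parp1 and Xrcc6 led in both models. In RM-9 they stood at 31.1 ± 4.79 and 30.3 ± 4.72 TPM (SD, n = 4) and their ranges overlapped. In MC-38 Parp1 stood at 79.2 ± 16.3 and Xrcc6 at 42.8 ± 9.02 TPM (SD, n = 4), with no overlap. Xrcc5, the partner of Xrcc6 in the Ku ring, was lower than Xrcc6 in both models, at 12.0 ± 0.595 TPM in RM-9 and 13.1 ± 1.26 in MC-38 (SD, n = 4). In RM-9 the order then ran Lig3 (11.6 ± 1.56, overlapping Xrcc5), Xrcc4 (5.29 ± 0.461), Nhej1 (3.28 ± 0.727), Lig4 (1.51 ± 0.162), Dclre1c (1.15 ± 0.713), Prkdc (0.935 ± 0.132) and Polq (0.807 ± 0.263), all in TPM (SD, n = 4). The last 4 of these overlapped each with the next. In MC-38 Lig3 (18.2 ± 3.65), Xrcc5, Xrcc4 (12.2 ± 2.06), Nhej1 (8.21 ± 1.95), Dclre1c (5.06 ± 2.94), Polq (2.94 ± 0.978) and Lig4 (2.86 ± 0.490) overlapped each with the next, and Prkdc was lowest at 1.39 ± 0.495 TPM (SD, n = 4), below every Lig4 value. Where coverage gave whole bases, the low genes rested on 286 to 569 reads per RM-9 library and 247 to 712 per MC-38 library for Prkdc, and on 126 to 348 and 328 to 719 for Polq. The 2 genes have long transcripts, so a low TPM still rests on many reads. These orders are of TPM, and the place of Xrcc4 in them depends on that choice, as described below. The lead of Parp1 and Xrcc6 over Xrcc5 depends on it too. The depth that FPKM implies was 2.48 to 2.53 times the deposited coverage for Parp1, 2.4 to 2.69 times for Xrcc6 and 1 times for Xrcc5. The order by coverage was not computed.

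**Figure D1:**
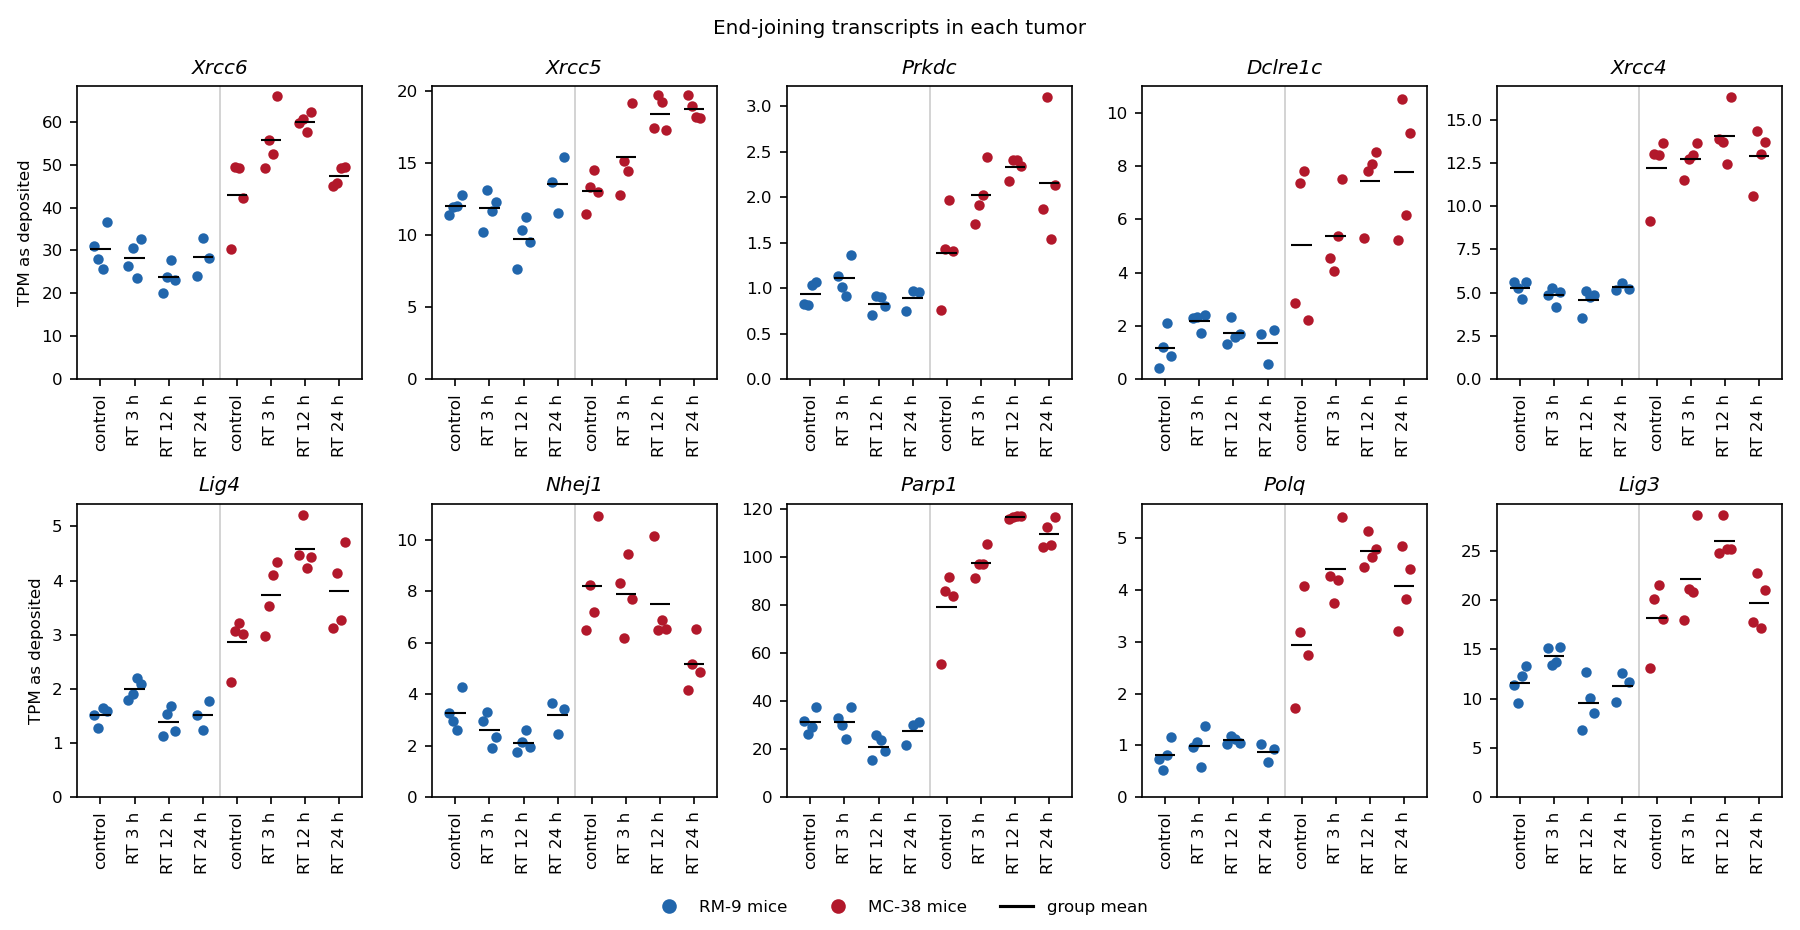
TPM of the 10 end-joining genes in each tumor, 1 panel per gene with its own axis from 0. Points are mice and bars are group means; in MC-38 the 4 Parp1 values at RT 12 h lie at 116 to 117, above every control value.

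In MC-38 tumors at 12 h after RT, limma, a linear model fitted across all genes with p adjusted over them (threshold 0.05), called 7 changes. By that test 7 of the 10 transcripts rose and none fell: Xrcc6, Xrcc5, Prkdc and Lig4 of the classical route and Parp1, Polq and Lig3, all 3 of the alternative route. Of all 15698 genes tested, 28.5% rose and 2.59% fell, so a rise was common among all genes. The median change of the 10 genes was 0.55 on the log2(TPM + 0.5) scale, and 0.33 over all genes tested. In the same 7 genes every RT mouse lay above every control mouse, as in 34.5% of all genes. After median-ratio scaling 2 of the 10 rose, Parp1 and Polq (6.27% of all genes rose and 9.98% fell), with a median of 0.20 for the 10 genes and 0.00 for all genes. Without control mouse 1 the count was 4 (Xrcc6, Xrcc5, Lig4 and Parp1), and with both changes together it was 0. The count also depended on other single mice: it was 4 without control mouse 4, 3 without RT mouse 4 and 2 (Xrcc5 and Parp1) without RT mouse 2. The number of all genes that rose moved as well. It was 4469 as deposited, 1561 without control mouse 1 and 348 with both changes together. It was 2198 without control mouse 4, 1425 without RT mouse 4 and 1267 without RT mouse 2. Xrcc5 and Parp1 passed in all 8 fits with 1 mouse left out, Lig4 in 7, Xrcc6 in 6, Polq in 4, Lig3 in 3 and Prkdc in 2.

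Parp1 was the member with the smallest adjusted p at this time. It stood at 55.3, 85.95, 91.9 and 83.75 TPM in the 4 controls and at 116, 117, 117 and 117 TPM at RT 12 h. The RT values were nearly equal and lay above all controls, of which mouse 1 was lowest. The log2 change was 0.58 (SE 0.12, adjusted p = 0.0106), 0.23 after median-ratio scaling (SE 0.055, adjusted p = 0.0143), 0.42 without control mouse 1 (adjusted p = 0.0082) and 0.20 with both (adjusted p = 0.0549). Polq, the polymerase of the alternative route, had 1.73, 3.19, 4.08 and 2.745 TPM in controls and 4.445, 5.14, 4.635 and 4.78 TPM at RT 12 h. All 4 RT values were above the highest control. Its log2 change was 0.66 (SE 0.19, adjusted p = 0.0243), 0.36 after median-ratio scaling (SE 0.11, adjusted p = 0.0445), 0.465 without control mouse 1 (adjusted p = 0.0679) and 0.27 with both (adjusted p = 0.146). Lig3, which seals nicks and alternative joins, had 13.15, 20.1, 21.5 and 18.1 TPM in controls and 24.8, 28.7, 25.2 and 25.2 TPM at RT 12 h. The groups did not overlap. Its log2 change was 0.52 (SE 0.16, adjusted p = 0.0283), 0.18 after median-ratio scaling (adjusted p = 0.191) and 0.38 without control mouse 1 (adjusted p = 0.0865).

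Both Ku subunits rose. Xrcc6 had 30.3, 49.5, 49.3 and 42.2 TPM in controls and 59.7, 60.6, 57.7 and 62.3 TPM at RT 12 h, a log2 change of 0.51 (SE 0.14, adjusted p = 0.0187). Xrcc5 had 11.5, 13.4, 14.5 and 13 TPM in controls and 17.4, 19.75, 19.2 and 17.3 TPM at RT 12 h, a log2 change of 0.48 (SE 0.12, adjusted p = 0.0154). In both genes the groups did not overlap. After median-ratio scaling the changes were 0.16 (adjusted p = 0.119) and 0.14 (adjusted p = 0.352). The kinase Prkdc had 0.7555, 1.43, 1.96 and 1.41 TPM in controls and 2.18, 2.41, 2.41 and 2.35 TPM at RT 12 h. Its log2 change was 0.63 (SE 0.21, adjusted p = 0.0342), 0.37 after median-ratio scaling (adjusted p = 0.109) and 0.44 without control mouse 1 (adjusted p = 0.110). Lig4, the ligase of the classical route, had 2.13, 3.08, 3.21 and 3.01 TPM in controls and 4.46, 5.21, 4.24 and 4.44 TPM at RT 12 h. Its log2 change was 0.61 (SE 0.16, adjusted p = 0.0187) and 0.30 after median-ratio scaling (adjusted p = 0.0637). Again no RT value of either gene fell within the controls. Without control mouse 1 the changes were 0.35 for Xrcc6 (adjusted p = 0.0336), 0.42 for Xrcc5 (adjusted p = 0.0349) and 0.50 for Lig4 (adjusted p = 0.0492).

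The other 3 classical genes did not pass the test at RT 12 h in MC-38. Xrcc4, the scaffold of Lig4, had a log2 change of 0.21 (95% interval -0.08 to 0.50, adjusted p = 0.229), and -0.13 after median-ratio scaling. Nhej1, which bridges the ends with Xrcc4, had -0.12 (95% interval -0.53 to 0.28, adjusted p = 0.617). Dclre1c, the nuclease Artemis, had 0.66 (95% interval -0.05 to 1.37, adjusted p = 0.125) with controls at 2.85, 7.37, 7.80 and 2.21 TPM, so its controls split into a low and a high pair. The depth that its FPKM implies was 1.32 to 3.52 times its deposited coverage, a 2.68-fold range among libraries against 1.72-fold or less for the other 9 genes, and the part of this in the spread was not tested. For Xrcc4 the implied depth was 62.2 to 66.2 times the coverage, and for every other gene 3.52 times or less. The levels of the genes beside each other, that of Xrcc4 above all, therefore depend on whether TPM or coverage is used.

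**Figure D2:**
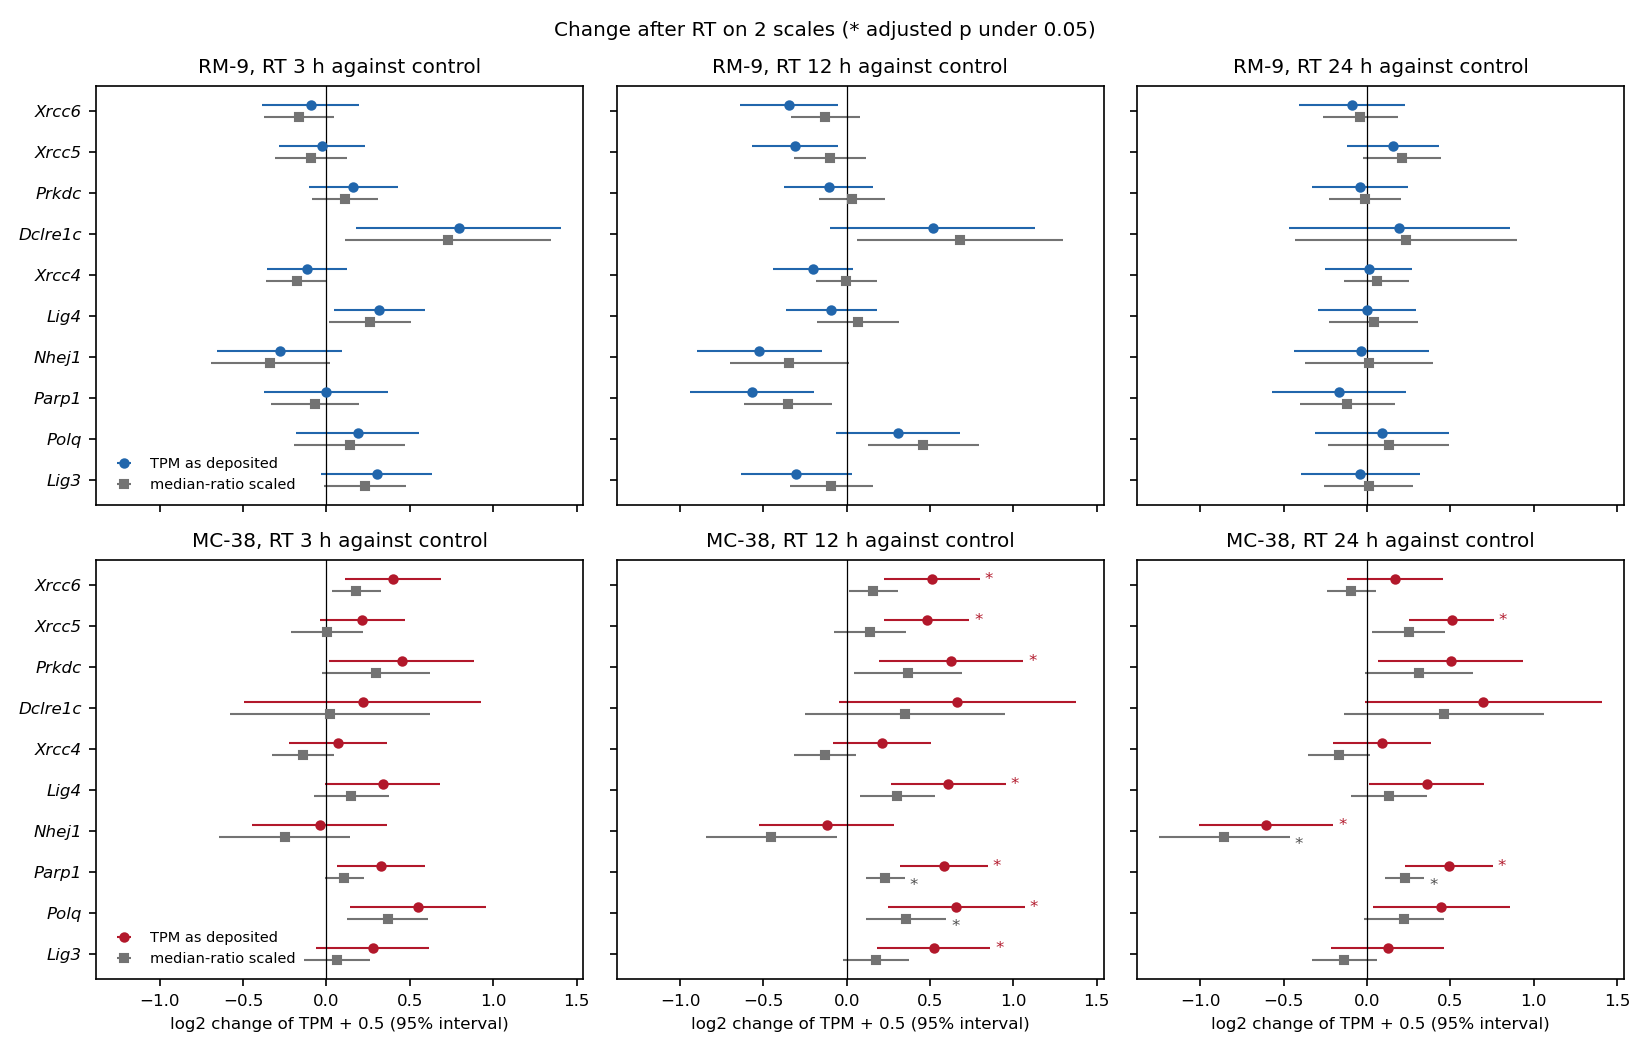
Log2 change against control of each gene at each RT time, as deposited (circles) and after median-ratio scaling (squares), with 95% intervals from limma; asterisks mark an adjusted p under 0.05. In MC-38 at RT 12 h 7 circles carry an asterisk and 2 squares do.

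At 24 h in MC-38, Xrcc5 and Parp1 rose and Nhej1 fell, against 13.2% of all genes higher and 0.548% lower. After median-ratio scaling Parp1 rose and Nhej1 fell, against 7.79% and 8.2% of all genes. Xrcc5 stood at 19.7, 19.0, 18.2 and 18.1 TPM, above every control, with a log2 change of 0.51 (SE 0.12, adjusted p = 0.0131). Its partner Xrcc6 stood at 44.9, 45.7, 49.3 and 49.5 TPM, within the range of the controls, with a log2 change of 0.17 (95% interval -0.12 to 0.46, adjusted p = 0.418). Parp1 stood at 104, 113, 105 and 117 TPM, above every control, with a log2 change of 0.49 (SE 0.12, adjusted p = 0.0181). Scaled by the median ratio, Parp1 had 0.23 (SE 0.055, adjusted p = 0.0127), whereas Xrcc5 had 0.25 (adjusted p = 0.113). Without control mouse 1 both passed, Parp1 with 0.33 (adjusted p = 0.00923) and Xrcc5 with 0.45 (adjusted p = 0.0274), and with both changes together Parp1 had 0.20 (adjusted p = 0.0456). With 1 mouse left out, Xrcc5 passed in 8 of 8 fits and Parp1 in 7, the exception being the fit without RT mouse 4 (0.46, adjusted p = 0.0577). Every RT 24 h mouse lay above every control in these 2 genes, as in 14.8% of all genes.

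By limma, Nhej1 at RT 24 h in MC-38 was the only fall among the 10 genes in any RT comparison as deposited. It had 6.49, 8.24, 7.20 and 10.9 TPM in MC-38 controls and 4.16, 5.18, 6.53 and 4.87 TPM at RT 24 h. Of the 4 RT mice, 3 lay below every control, and RT mouse 3 lay just above the lowest control, so the groups overlapped by 1 mouse. The log2 change was -0.61 (SE 0.19, adjusted p = 0.0453), -0.86 after median-ratio scaling (SE 0.18, adjusted p = 0.00642), -0.70 without control mouse 1 (adjusted p = 0.0380) and -0.83 with both (adjusted p = 0.0191). As deposited it passed in 3 of 8 fits with 1 mouse left out, those without control mouse 1, control mouse 3 and RT mouse 3. In the other 5 it ranged from -0.61 to -0.47 with adjusted p from 0.0755 to 0.134. At RT 3 h Nhej1 stood at 8.31, 6.16, 9.46 and 7.70 TPM and at RT 12 h at 10.15, 6.48, 6.88 and 6.51 TPM, both overlapping the controls. Its neighbours in the ligation complex did not pass the test at RT 24 h, with log2 changes of 0.09 for Xrcc4 (95% interval -0.21 to 0.38) and 0.36 for Lig4 (95% interval 0.01 to 0.70, adjusted p = 0.148). Of the remaining genes, Dclre1c (0.70, adjusted p = 0.172), Prkdc (0.50, adjusted p = 0.111), Polq (0.45, adjusted p = 0.131) and Lig3 (0.12, adjusted p = 0.631) had positive log2 changes that did not pass.

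**Figure D3:**
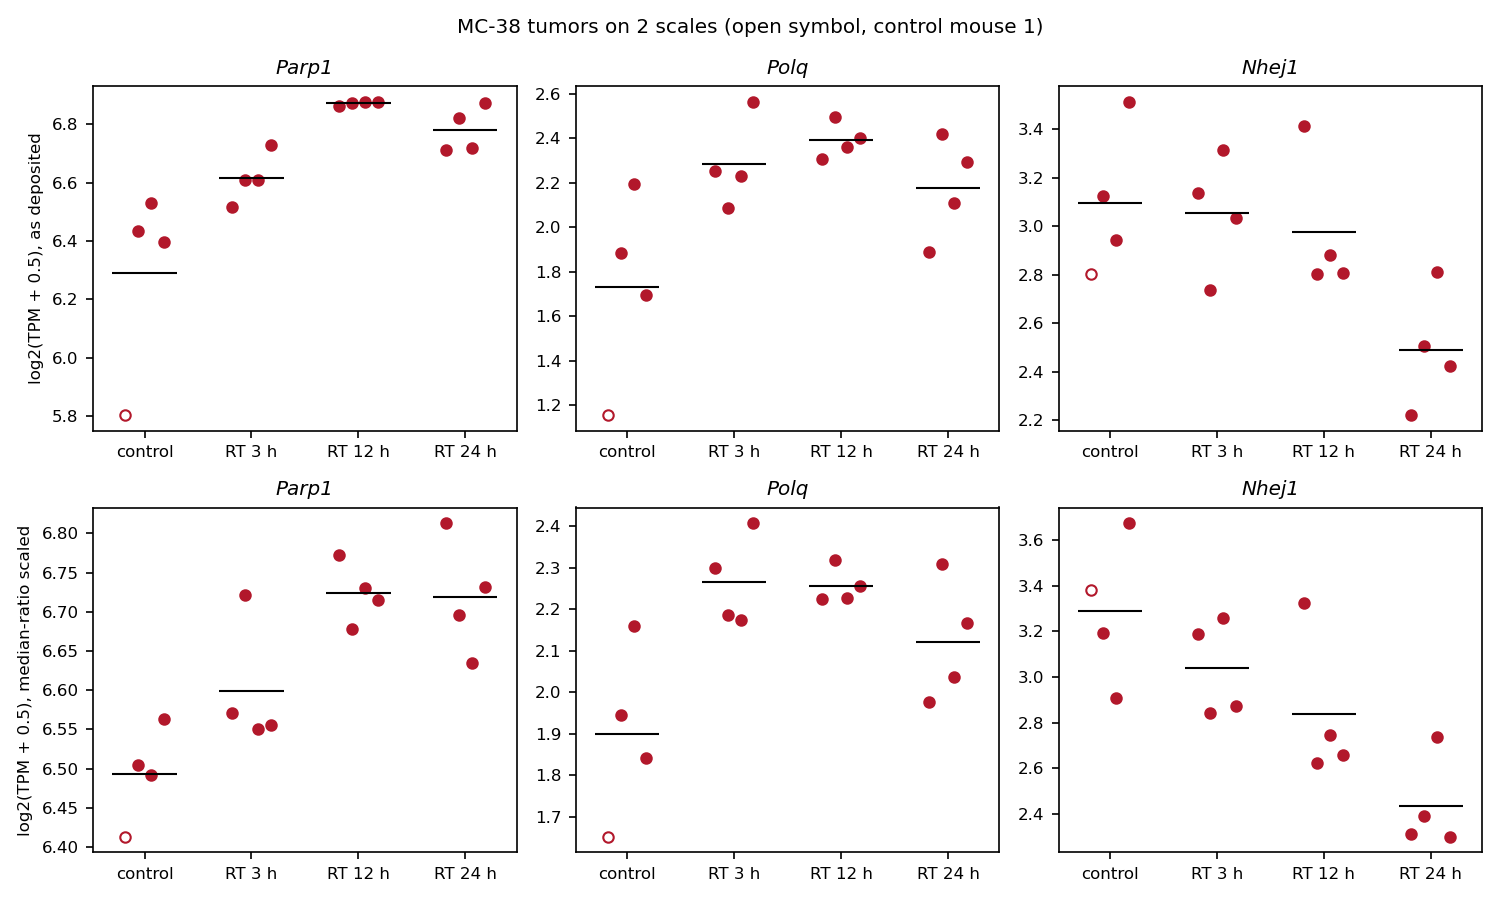
Log2(TPM + 0.5) of Parp1, Polq and Nhej1 in the 16 MC-38 tumors as deposited (top) and after median-ratio scaling (bottom); points are mice, bars are group means, and the open symbol is control mouse 1. For Nhej1, 3 of the 4 RT 24 h values lie below every control on the top row.

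At 3 h in MC-38 none of the 10 passed the test in limma (0.051% of 15698 genes rose and 0.0127% fell, 0.0637% in all). An unadjusted p under 0.05 was found for 4 (19.9% of all genes). After median-ratio scaling none passed limma either (0.274% of all genes rose and 0.357% fell, 0.631% in all). Dunnett's comparisons within the gene, run for the 10 genes alone and not adjusted over genes, gave p under 0.05 for 3 (Xrcc6, Parp1 and Polq). Of the 10 log2 changes, 9 were positive, with a median of 0.30 against 0.19 over all genes. Polq had 4.26, 3.75, 4.19 and 5.42 TPM, 3 of them above every control, and a log2 change of 0.55 (95% interval 0.14 to 0.96, adjusted p = 0.173). Xrcc6 had 49.2, 55.75, 52.4 and 66.0 TPM and a log2 change of 0.40 (95% interval 0.11 to 0.68, adjusted p = 0.169). Parp1 had 91.1, 97.1, 97.2 and 105.5 TPM and a log2 change of 0.33 (95% interval 0.06 to 0.59, adjusted p = 0.191). Without control mouse 1 the changes were 0.36 for Polq (adjusted p = 0.458), 0.24 for Xrcc6 (adjusted p = 0.395) and 0.16 for Parp1 (adjusted p = 0.426). The mean TPM of Parp1 in MC-38 was thus 79.2 in controls, 97.8 ± 5.90 at 3 h, 117 ± 0.540 at 12 h and 110 ± 5.98 at 24 h (SD, n = 4 each).

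In RM-9 tumors none of the 10 passed the test in limma at any time. At RT 3 h 0.228% of 14013 genes passed (0.2% higher and 0.0285% lower), at RT 12 h 8.37% (0.0714% higher and 8.3% lower) and at RT 24 h 0%. After median-ratio scaling none of the 10 passed either, where 2.9% of all genes did at RT 3 h (1.69% higher and 1.21% lower), 0.114% at RT 12 h (0.0714% higher and 0.0428% lower) and 0% at RT 24 h. Of the 10 genes, 2 reached an unadjusted p under 0.05 at RT 3 h, 4 did at RT 12 h and 0 at RT 24 h, as did 21.8%, 31% and 4.9% of all genes. Dunnett's comparisons, not adjusted over genes, gave p under 0.05 for Lig4 at RT 3 h, Nhej1 and Parp1 at RT 12 h and none at RT 24 h. They were run for the 10 genes alone, so no share of all genes stands beside them. At RT 3 h Lig4 stood at 1.80, 1.90, 2.20 and 2.09 TPM against 1.52, 1.28, 1.64 and 1.59 TPM in controls, and Lig3 at 15.1, 13.4, 13.7 and 15.3 against 11.4, 9.59, 12.3 and 13.3 TPM. In both ligases every RT mouse lay above every control, as in 9.88% of all genes, with log2 changes of 0.32 (95% interval 0.04 to 0.59, adjusted p = 0.177) and 0.30 (95% interval -0.03 to 0.63, adjusted p = 0.264). Dclre1c had the largest of the 3 h changes in RM-9, 0.79 (95% interval 0.18 to 1.41, adjusted p = 0.152), with controls from 0.425 to 2.11 TPM.

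At RT 12 h in RM-9, Parp1 had 15.5, 25.7, 23.9 and 19.1 TPM against 31.8, 26.1, 29.2 and 37.4 TPM in controls, and no RT mouse reached the lowest control. Its log2 change was -0.57 (95% interval -0.94 to -0.19, adjusted p = 0.0552), and -0.35 after median-ratio scaling (adjusted p = 0.210). Nhej1 had 1.76, 2.15, 2.604 and 1.93 TPM against 3.26, 2.97, 2.601 and 4.29 TPM, so 3 of 4 RT mice lay below every control, with a log2 change of -0.53 (95% interval -0.90 to -0.15, adjusted p = 0.0684), and -0.61 without control mouse 3 (adjusted p = 0.0486). Xrcc5 also lay below every control, with a log2 change of -0.31 (adjusted p = 0.101). All RT mice below all controls was the case for 19.4% of all genes at this time. The median log2 change was -0.25 for the 10 genes and -0.19 for all genes, while mitochondrial genes took 54.1 ± 2.18% of TPM, against 49.2 ± 1.49% in controls (SD, n = 4). After median-ratio scaling the median of the 10 was -0.05. Polq was one of 2 genes with a positive change as deposited, 0.31 (95% interval -0.06 to 0.68, adjusted p = 0.236). At RT 24 h all 10 log2 changes lay between -0.17 and 0.19.

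The test of the difference between models separated 6 of the 10 genes at 12 h: Parp1, Xrcc6, Xrcc5, Prkdc, Lig4 and Lig3 all had a higher change in MC-38 than in RM-9. Of 15358 genes, 44.9% had a higher change in MC-38 and 0.469% a lower one (45.4% in all), so this direction was general. The MC-38 change minus the RM-9 change of Parp1 was 1.15 (SE 0.22, adjusted p = 0.00167), and 0.61 after median-ratio scaling (SE 0.14, adjusted p = 0.0184), where 1.52% of genes were higher and 1.5% lower (3.02% in all) and Parp1 was the only one of the 10 that passed. Without MC-38 control mouse 1 it was 0.99 (adjusted p = 0.00324), and 0.58 with both changes (adjusted p = 0.0496). With TPM recomputed without mitochondrially encoded genes, 4 of the 10 passed (Parp1, Xrcc6, Xrcc5 and Lig3), and Parp1 had 0.87. Of the 15358 genes, 2251 were higher and 123 lower under that setting. For the other 5 genes the difference ranged from 0.70 (Lig4, adjusted p = 0.00887) to 0.85 (Xrcc6, adjusted p = 0.00332), and after median-ratio scaling from 0.24 to 0.32, none of which passed. Polq differed by 0.35 (95% interval -0.18 to 0.88, adjusted p = 0.257) and by -0.14 after scaling, so a difference between the models was not detected for it. At 3 h and 24 h none of the 10 passed (0% and 1.81% of all genes), with 1 and 3 unadjusted p under 0.05 (9.9% and 22.2% of all genes). After median-ratio scaling none passed at 3 h (0.013% of all genes higher and 0.0326% lower, 0.0456% in all) or at 24 h (1.24% higher and 0.273% lower). Nhej1 at 24 h had -0.57 (95% interval -1.13 to -0.01, adjusted p = 0.218), so its fall in MC-38 was not shown to differ from its change in RM-9.

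**Figure D4:**
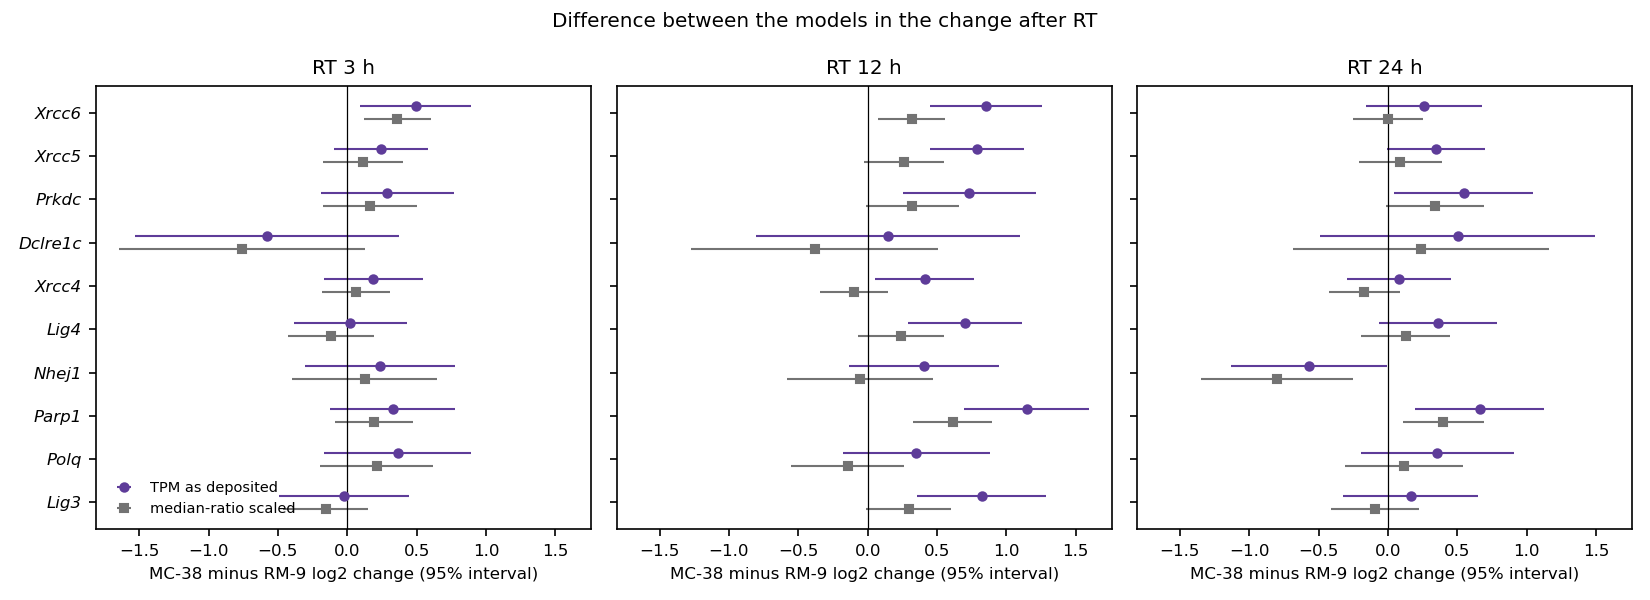
MC-38 change minus RM-9 change on the log2 scale for each gene and RT time, as deposited (circles) and after median-ratio scaling (squares), with 95% intervals. At RT 12 h Parp1 lies farthest right on both scales, at 1.15 and 0.61.

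Between the control tumors, 9 of the 10 transcripts were higher in MC-38 than in RM-9 as deposited, all but Xrcc5 (64.7% of all genes were higher and 10.7% lower). The median difference was 0.93 for the 10 genes and 0.63 for all genes. After median-ratio scaling 5 were higher (34.1% of all genes) and Xrcc5 was lower (31.5%). The 5 were Polq with a log2 difference of 0.88 (as deposited 1.37), Dclre1c with 1.16 (1.68), Parp1 with 0.66 (1.32), Nhej1 with 0.59 (1.2) and Xrcc4 with 0.49 (1.12), and all 5 remained past the test without control mouse 1. With coverage in place of TPM the difference was 0.17 for Xrcc4 and 0.84 for Dclre1c, and 0.19 and 0.81 with scaling as well, all 4 past the test. For Xrcc5 the difference was 0.11 as deposited (95% interval -0.13 to 0.35) and -0.53 after scaling (SE 0.099). Xrcc6, Prkdc and Lig3 were higher as deposited (0.48, 0.36 and 0.61) and had -0.18, -0.11 and -0.04 after scaling, so no direction between the models can be given for these 3. Lig4 had 0.73 as deposited and 0.19 after scaling (adjusted p = 0.111). As deposited, the control values of Polq, Parp1, Xrcc4, Nhej1, Lig4 and Dclre1c did not overlap between the models. Those of Xrcc6, Xrcc5, Prkdc and Lig3 did. The share of all genes without overlap was not computed, and 64.7% of all genes were higher in MC-38. Polq, for example, ranged from 0.526 to 1.16 TPM in RM-9 and from 1.73 to 4.08 TPM in MC-38.

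Beside the 10, 3 lists of accessory genes were counted. Of 10 tested genes for end processing and ligation, 5 rose at RT 12 h in MC-38, with a median log2 change of 0.48. Among them were the gap-filling polymerases Polm (0.98, adjusted p = 0.0149) and Poll (0.57, adjusted p = 0.00842) and the helicase Wrn (0.74, adjusted p = 0.0173). Of 12 genes for break signalling and the 53BP1-shieldin branch, which protects ends from resection, 6 rose, with a median of 0.53. They included Trp53bp1 itself (0.80, adjusted p = 0.0141), the damage mediator Mdc1 (0.79, adjusted p = 0.0161) and the kinase Atm (0.83, adjusted p = 0.0210). Of 14 genes for resection and single-strand break repair 7 rose, with a median of 0.49, led by Parp3 (0.87, adjusted p = 0.0114), Mre11a (0.57, adjusted p = 0.0154) and Rad50 (0.67, adjusted p = 0.0194). After median-ratio scaling 2, 2 and 1 of these genes remained higher in the 3 lists. The all-gene share of 28.5% and median of 0.33 are the background for the counts and medians as deposited. For the scaled counts the background is 6.27% of all genes higher.

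At RT 24 h in MC-38, 2, 1 and 3 genes of the 3 lists rose and none fell, against 13.2% of all genes higher, among them Lig1, the replicative ligase (0.57, adjusted p = 0.0163), and Xrcc1, the scaffold of Lig3 (0.52, adjusted p = 0.0266). After median-ratio scaling Lig1 rose and 4 other genes of the lists fell, against 7.79% of all genes higher and 8.2% lower. In RM-9 at RT 12 h the direction was the other one: 0, 2 and 4 genes fell, among them the damage histone H2afx (-0.59, adjusted p = 0.0257), the ubiquitin ligase Rnf8 (-0.39, adjusted p = 0.0421), the break sensor Nbn (-0.61, adjusted p = 0.0272), the flap nuclease Fen1 (-0.54, adjusted p = 0.0272) and Lig1 (-0.77, adjusted p = 0.0277), against 8.3% of all genes lower. None of the 6 remained past the test after median-ratio scaling. At RT 3 h in both models and at RT 24 h in RM-9 no gene of the lists passed as deposited. Markers of other cells and of proliferation were also looked at, as deposited. Of 6 macrophage genes 3 fell at RT 12 h in MC-38, where 2.59% of all genes fell. Their summed TPM went from 624.5 to 999.9 in controls to 238 to 551. Of 10 proliferation genes 5 rose, where 28.5% of all genes rose. Their summed TPM was 567 to 969.5 in controls and 999.6 to 1318 at RT 12 h. Neutrophil markers summed to 11.3 to 25.1 TPM in controls and 13.3 to 16 at RT 12 h, so these overlapped. The leukocyte, T cell, fibroblast and endothelial sums overlapped as well. The 5 skeletal muscle genes summed to 16.9 to 9783 TPM in MC-38 controls and to 5.51 to 418 TPM at RT 12 h. The part of these shifts in the changes of the end-joining genes was not tested.

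**Figure D5:**
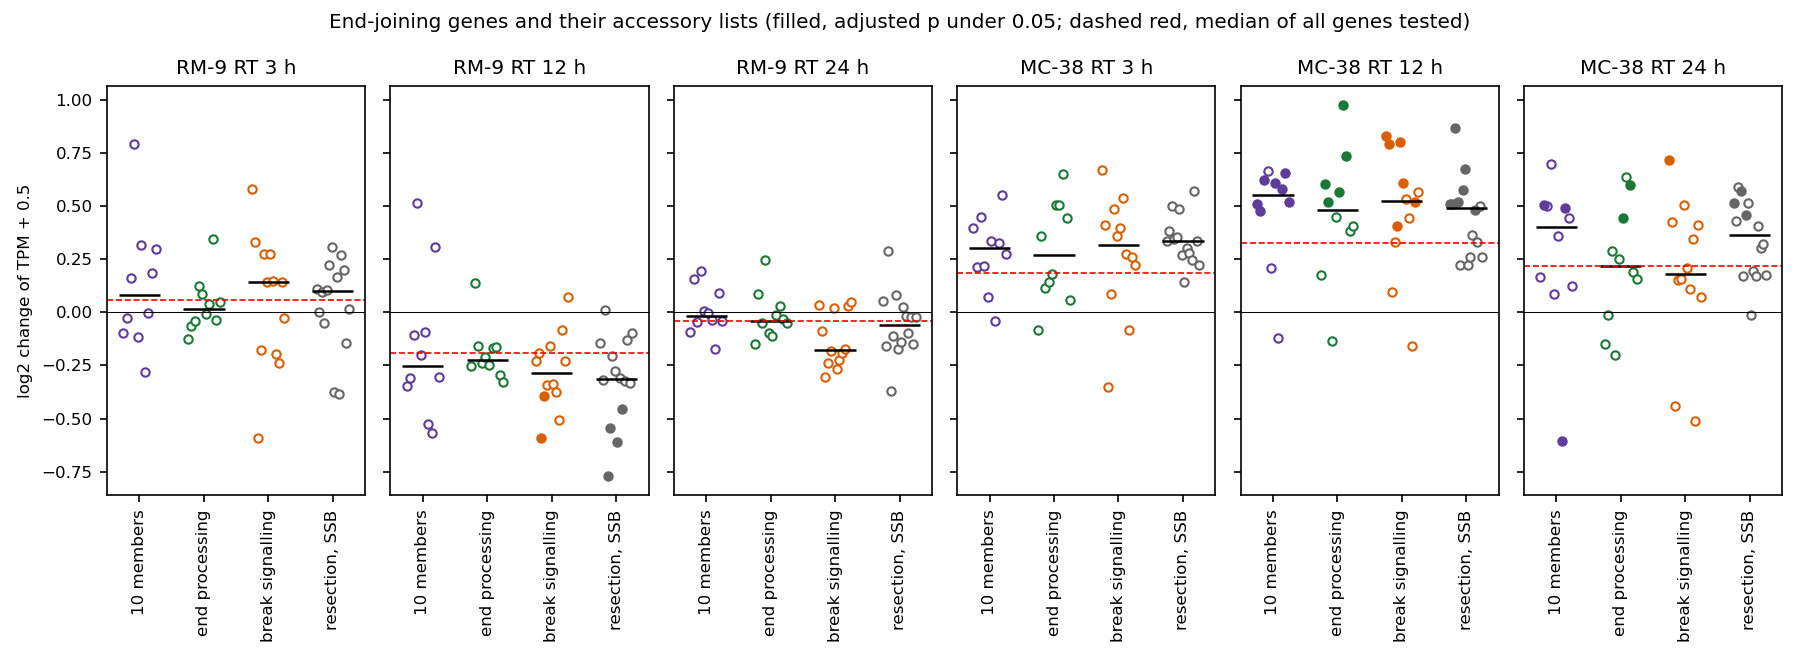
Log2 change of the 10 end-joining genes and of the 3 accessory lists in the 6 comparisons; each point is a gene, filled where the adjusted p is under 0.05, the bar is the list's median and the dashed line the median of all genes tested. At RT 12 h in MC-38 the 4 bars lie between 0.48 and 0.55, above the dashed line at 0.33.

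The genes whose pattern was most like each member were sought among 12255 genes (12256 for Prkdc and Polq), as the highest value of the smaller of 2 correlations of median-ratio-scaled log2 values, over 15 RM-9 and 16 MC-38 libraries. For Parp1 they were Polr1a (r = 0.830 in RM-9 and 0.913 in MC-38) and Tbc1d5 (0.845 and 0.812). For Polq they were Zwilch, a kinetochore gene (0.803 and 0.812), and Rttn (0.778 and 0.816). Lig3 was most like Nfatc3 (0.874 and 0.905) and Sbf2 (0.837 and 0.921), Prkdc like Kmt2a (0.837 and 0.858) and Zfp148 (0.843 and 0.836), and Lig4 like Nrd1 (0.838 and 0.8) and Mical3 (0.766 and 0.792). Xrcc5 was most like Fblim1 (0.849 and 0.849) and Htra1 (0.821 and 0.812), while its partner Xrcc6 was most like Pold2, a subunit of a replicative polymerase (0.731 and 0.751), and Hmces (0.700 and 0.698). Nhej1 was most like Dhrs13 (0.807 and 0.746) and Ptrhd1 (0.718 and 0.721), Dclre1c like Mdm4 (0.790 and 0.738) and A830080D01Rik (0.762 and 0.724), and Xrcc4 like Tfb1m (0.694 and 0.603) and Uchl4 (0.590 and 0.603). No member was among the 2 genes most like another member. The libraries share depth, tissue mixture and time groups, so these are descriptions.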

How the data were processed

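Messenger RNA of 31 mouse tumors, 1 per mouse, was sequenced by the authors as single-end reads of 75 bases. The authors deposited 1 table per library with TPM, FPKM and coverage per gene. TPM was deposited as a level per transcript length that sums to the same total in each library. FPKM and the coverage signal, the mean depth per base, were deposited beside it. The aligner is not given in the sources used here. The submitters' processing notes name bcl2fastq 2.17 and GRCm39, whereas gene coordinates in the files match GENCODE M21, which is on GRCm38, with 83.25% of 45137 shared genes at the same start and end. Rows of 1 gene were summed.

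Differences were tested with limma 3.58.1 in R 4.3.3 on log2(TPM + 0.5), with the 4 groups of a model in 1 fit, a filter at a mean TPM of 0.5 that the 10 members were exempt from, and Benjamini-Hochberg adjustment over all genes tested at 0.05. Fold changes on this scale understate those of low genes. Differences between models came from 1 fit of all 31 libraries. Genes are named by rule: all members, of other lists at most the 3 called genes with the smallest p per comparison, and the 2 genes most like each member; Mcm4, Abhd13 and Tmem167 were named after their values were seen. Nothing in the labels beyond the mouse number describes a batch. Dunnett's comparisons used SciPy 1.17.1 on the TPM of the 10 members alone, without adjustment over genes. Scripts were tested on simulated data. The members and lists were chosen with earlier results of these data known. Median-ratio scaling, pseudocounts of 0.1 and 1, other filters and leaving out each mouse were alternatives. Coverage in place of TPM, and median-ratio scaling without MC-38 control mouse 1, were added after seeing the data.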

Additional observations from a re-analysis of the deposited data

Results flagged for a closer look

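In the 70 sets of 4 mice (10 genes in 7 groups), 4 held a mouse that stood apart by Dixon's criterion, which chance gives in about 1 of 20 sets. Dclre1c in RM-9 RT 3 h mouse 3 was 1.72 TPM, against 2.31 to 2.39 in the other 3. Xrcc4 in MC-38 control mouse 1 was 9.15 TPM, against 12.9 to 13.7, in the library with the highest skeletal muscle and mitochondrial levels of its group. Nhej1 in MC-38 RT 12 h mouse 1 was 10.15 TPM, against 6.48 to 6.88. Lig3 in MC-38 RT 12 h mouse 2 was 28.7 TPM, against 24.8 to 25.2.

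At 12 h the log2 change differed between the models in 6 genes, tested by the difference itself: Parp1 by 1.15, Xrcc6 by 0.85, Lig3 by 0.82, Xrcc5 by 0.79, Prkdc by 0.73 and Lig4 by 0.70, each higher in MC-38. All 6 differences passed in each of the 16 fits that left out 1 mouse of the 4 groups, and 1 of the 6, Parp1, passed after median-ratio scaling. Of all 15358 genes, 6903 were higher and 72 lower as deposited, and 233 were higher and 231 lower after that scaling.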

How the results depend on the processing

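Of 2350 values of single genes under an alternative, 107 lost their call, 20 gained one, 18 reversed and 8 uncalled values moved outside their interval. The other 2197 stayed on their side of the threshold. Among the 2350, 129 changed sign with no call under either setting, 44 of them with a mouse left out.

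The count of genes called at RT 12 h in MC-38 was 7 as reported. After median-ratio scaling it was 2 (Parp1 and Polq), where 985 of 15698 genes were higher. With coverage scaled that way it was also 2 (Parp1 and Lig4), where 1089 of 15698 genes were higher. With that scaling and a replicate block it was 1, where 731 were higher. With that scaling and without control mouse 1 it was 0, where 348 were higher. With only the compared groups fitted it was 3, where 1164 of 15658 genes were higher. At RT 24 h in MC-38 the count was 3 as reported. It was 0 with only the compared groups fitted, where 306 of 15649 genes were higher and 12 lower. The difference between models at 12 h gave 6, and 1 under each of the 4 settings with median-ratio scaling. Under those settings 86 to 299 of all genes were higher and 56 to 274 lower. It gave 4 without mitochondrially encoded genes and 4 with coverage in place of TPM, where Prkdc and Lig4 no longer passed. Of 15358 genes, 2251 were higher in the first of these and 2287 in the second. Dunnett's comparisons on TPM, not adjusted over genes, gave 3 at RT 3 h in MC-38, 1 at RT 3 h in RM-9 and 2 at RT 12 h in RM-9, each against 0. At RT 12 h and RT 24 h in MC-38 they gave p under 0.05 for the same genes as limma. A mean TPM of at least 5 gave 1 at RT 12 h in RM-9, also against 0. With 1 mouse left out the counts ran from 2 to 8 at RT 12 h and from 1 to 5 at RT 24 h in MC-38, from 0 to 1 at RT 12 h in RM-9, from 6 to 7 for the 12 h difference and from 0 to 1 for the 24 h difference. Apart from the scaling and the smaller fits, the cause was not tested.

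The number of all genes called moved too: at RT 12 h in MC-38 from 4875 to between 1060 and 5676 over the alternatives, and to between 1443 and 7292 with 1 mouse left out. At RT 12 h in RM-9 it moved from 1173 to between 0 and 1358, and to between 0 and 1573. At RT 24 h in MC-38 it moved from 2159 to between 318 and 2854, and to between 1070 and 3528. For the 12 h difference between models it moved from 6975 to between 142 and 7709, and to between 4241 and 8575. For the 24 h difference it moved from 278 to between 60 and 1445 with 1 mouse left out.

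The 18 reversals were between the control tumors. MC-38 minus RM-9 was -0.1849 for Xrcc6, -0.5347 for Xrcc5, -0.1136 for Prkdc and -0.03866 for Lig3 after median-ratio scaling, with or without the replicate block. With coverage scaled that way it was -0.1967, -0.5314, -0.1255 and -0.08236, and with that scaling and without control mouse 1 it was -0.1577, -0.5998, -0.02224 and -0.02091. For Xrcc5 it was also -0.31 without mitochondrially encoded genes and -0.2768 with coverage in place of TPM.

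Mouse numbers did not pair the libraries: same-number residuals correlated from -0.389 to 0.317 in RM-9 and from -0.483 to 0.554 in MC-38, and 3 of 15 and 4 of 16 libraries correlated best with their own number. With the replicate block as deposited 2 genes passed at RT 24 h in MC-38, where 2329 of 15698 genes were higher and 89 lower. Between models 7 differed at 12 h, where 7636 of 15358 genes were higher and 73 lower.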

Other observations

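The genes that start beside a member on the opposite strand were looked up for their own changes. Mcm4, a replicative helicase subunit whose start lies 466 bases upstream of that of Prkdc, rose at RT 12 h (0.50, adjusted p = 0.0160) and at RT 24 h (0.80, adjusted p = 0.00134) in MC-38 and fell at RT 12 h in RM-9 (-0.68, adjusted p = 0.0246), where Prkdc had -0.11 (adjusted p = 0.578). After median-ratio scaling Mcm4 had 0.53 at RT 24 h (adjusted p = 0.000278) and 0.15 at RT 12 h in MC-38 (adjusted p = 0.110), and -0.47 at RT 12 h in RM-9 (adjusted p = 0.0585), so the rise at 24 h alone passed. Abhd13, which starts 21 bases upstream of Lig4, had 0.28 at RT 12 h in MC-38 (adjusted p = 0.159), where Lig4 rose by 0.61. Tmem167, which overlaps Xrcc4, had 0.15 there (adjusted p = 0.348) beside 0.21 for Xrcc4.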
